A study of Mus musculus with 2 samples.

Results

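The genes described here are 8 transcription regulators of the naive pluripotent state, the Krüppel-like factors Klf2, Klf4 and Klf5, the nuclear receptors Esrrb and Nr5a2, and Tfcp2l1, Tbx3 and Prdm14. They were chosen by symbol, and all 8 were found among the 27998 genes of the count tables. The libraries come from male mouse E14 embryonic stem cells, a pluripotent line that renews itself in culture, grown without feeder cells on gelatin in ESGRO-2i medium with leukaemia inhibitory factor (2i/LIF). The strain label is C57BL/6. The control culture received the solvent DMSO for 24 h, and the treated culture received Idoxuridine for 24 h. Idoxuridine is an iodinated thymidine analogue that cells build into new DNA, and the labels list it under noise enhancer testing. The treatment label gives its dose as 10 µM, while a protocol field gives the same figure in mM. The labels name no introduced allele, and each group was 1 sample of 1 line with 1 single-cell library, so no difference below has a replicate check.

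The naive state is held by a network of transcription factors that bind the same enhancers and support one another's transcription. In 2i/LIF, an inhibitor of MEK blocks the differentiation signal from FGF, an inhibitor of GSK3 relieves repression by Tcf7l1, with Esrrb as a main target, and LIF acts through STAT3 on Klf4 and Tfcp2l1. Klf2, Klf4 and Klf5 bind similar GC-rich sites and can stand in for one another, Tbx3 is tied to PI3K signalling, Nr5a2 binds regulatory DNA of Pou5f1, and Prdm14 represses FGF signalling and DNA methyltransferase genes.

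From DMSO there were 811 cells and 40818344 unique molecular identifiers (UMIs, 1 per captured transcript end), at a median of 44502 per cell. From Idoxuridine there were 742 cells and 30454626 UMIs, at a median of 37425 per cell. At matched depth the stem cell marker Pou5f1 had a UMI in 100% of cells of both libraries, Nanog in 99.0% of DMSO and 94.8% of Idoxuridine cells, and Sox2 in 99.5% and 91.4%. Sall4 went the other way, at 82.7% and 87.2%, as did Lin28a, at 45.5% and 59.3%. By the rule for level given below, 4 of 10 listed stem cell markers were lower (4.2% of all genes) and 2 higher (18.8%). The libraries shared 2 cell barcodes. The summed level of 6 nuclear-retained RNAs was 3306 counts per 1000000 UMIs (CPM) in DMSO and 5412 CPM in Idoxuridine, and their part in the differences below was not tested.

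All 8 members are annotated as protein-coding on GRCm38 (the build named mm10). Klf2 lies on chromosome 8 from 72319033 to 72321656, Klf4 on chromosome 4 from 55527143 to 55532466, and Klf5 on chromosome 14 from 99298691 to 99315036. Esrrb lies on chromosome 12 from 86361117 to 86521628, and Tbx3 on chromosome 5 from 119670669 to 119684724. Chromosome 1 carries Tfcp2l1 from 118627945 to 118685168, Nr5a2 from 136842571 to 136960448 and Prdm14 from 13113457 to 13127163. Tfcp2l1 overlaps 3 annotated genes, of which Gm23497 is on the same strand, and Tbx3 overlaps Tbx3os1 on the opposite strand. How reads from overlapping stretches were counted was not examined, which makes the counts of Tfcp2l1 and Tbx3 less certain.

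RefSeq promoters on GRCm38.p6 were matched for 5 of the 8 members, with a second start site each for Esrrb and Nr5a2. The windows upstream of the start are printed for Klf2 and Tfcp2l1, the members with the lowest level ratios, and for Klf4, the Krüppel-like factor whose ratio was nearest to 0. Capitals mark the GC box GGGCGG and the TATA box TATAAA on either strand. The Klf2 sequence is chr8:72318812-72319032 on the plus strand, without the last bases before the RefSeq start, which lie in an annotated exon. The Klf4 sequence is chr4:55532476-55532725 on the minus strand, and the Tfcp2l1 sequence is chr1:118627695-118627944 on the plus strand.
Klf2: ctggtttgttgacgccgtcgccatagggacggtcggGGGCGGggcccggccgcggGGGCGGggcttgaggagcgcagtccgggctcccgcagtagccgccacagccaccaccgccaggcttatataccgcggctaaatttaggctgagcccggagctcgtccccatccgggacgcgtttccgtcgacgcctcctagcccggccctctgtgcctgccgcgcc
Klf4: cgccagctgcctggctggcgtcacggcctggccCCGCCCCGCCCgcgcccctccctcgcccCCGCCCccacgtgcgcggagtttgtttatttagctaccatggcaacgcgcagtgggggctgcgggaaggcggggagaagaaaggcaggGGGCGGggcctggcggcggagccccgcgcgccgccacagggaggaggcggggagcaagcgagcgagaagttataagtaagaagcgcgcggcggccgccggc
Tfcp2l1: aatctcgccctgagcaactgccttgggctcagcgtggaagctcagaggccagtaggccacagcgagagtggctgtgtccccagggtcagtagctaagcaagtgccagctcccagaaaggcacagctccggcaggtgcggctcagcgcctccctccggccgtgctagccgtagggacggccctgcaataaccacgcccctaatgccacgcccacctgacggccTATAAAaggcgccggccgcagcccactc
The Klf2 window held 2 GC boxes and the Klf4 window held 4, the first pair of which share a base. The other matched members had none, and 32.7% of all 32851 promoters have one within 250 bases upstream. A TATA box was found in Tfcp2l1 and at the first start of Nr5a2, against 12.4% of all promoters, with no overlap between the TATA and GC boxes. The nuclear receptor motif AGGTCA (14.0% of promoters) was found only at the first start of Nr5a2 among the 7 matched starts. The STAT site TTCNNNGAA (7.02%) was found only at the first start of Esrrb, and CACCC (52.0%) at both Esrrb starts, the second Nr5a2 start and in the full Klf2 window. These are matches of letters on both strands and not binding sites. The full windows of Klf2 (71.2%), Klf4 (74.0%) and Tfcp2l1 (65.2%) had a GC content above the median of all promoters, 52.4%.

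The comparison of level asks whether these regulators were more or less abundant after Idoxuridine than after DMSO. In CPM, 7 of the 8 were lower in the Idoxuridine library beyond counting error, all except Prdm14, and the ratio differed from gene to gene. Klf2, Tfcp2l1 and Tbx3 stood lowest against their DMSO level, while Esrrb, Klf4, Klf5, Nr5a2 and Prdm14 lay within 0.5 log2 of it. Summed over all 8, the level was 2250 CPM (95% interval 2235–2264) in DMSO and 1451 CPM (1438–1465) in Idoxuridine, a log2 ratio of -0.63. Intervals here cover counting error only. A member was counted as lower when it lay at least 0.5 log2 lower with Poisson intervals that did not overlap.

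Klf2, the most abundant of the 3 Krüppel-like factors and a target of Mek-Erk signalling at the protein level, had 56579 UMIs in DMSO and 23707 in Idoxuridine. This put it at 1386 CPM (1375–1398) with DMSO and 778 CPM (769–788) with Idoxuridine. The DMSO level was 1.78 times the Idoxuridine level, a log2 ratio of -0.83 (-0.85 to -0.81), and 0.954% of the 10380 genes with at least 200 UMIs had a lower ratio. Klf4, a reprogramming factor and direct STAT3 target, stood at 306 CPM (301–312) and 267 CPM (262–273), a log2 ratio of -0.20 (-0.24 to -0.16). Klf5, which also acts in the trophectoderm and epiblast of the embryo, stood at 184 CPM (179.6–188) and 154 CPM (149.6–158), a log2 ratio of -0.25 (-0.31 to -0.20). The 3 Krüppel-like factors thus had separate intervals between libraries but unequal ratios. Klf2 made up 61.6% of the members' UMIs in DMSO and 53.6% in Idoxuridine, and Klf4 made up 13.6% and 18.4%.

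Tfcp2l1, a Grainyhead-related factor that passes on the LIF signal, stood at 156 CPM (152–160.1) in DMSO and 91.3 CPM (87.9–94.7) in Idoxuridine. Its log2 ratio was -0.78 (-0.84 to -0.71), the nearest to that of Klf2. Tbx3, a T-box repressor, stood at 121 CPM (118–124) and 82.0 CPM (78.8–85.3), a log2 ratio of -0.56 (-0.63 to -0.49). Both lay in the lowest few percent of all genes by ratio, with 1.25% of genes below Tfcp2l1 and 3.24% below Tbx3. Esrrb, an orphan nuclear receptor, stood at 33.5 CPM (31.8–35.3) and 25.1 CPM (23.3–26.9), a log2 ratio of -0.42 (-0.55 to -0.29). Nr5a2, the other nuclear receptor, stood at 54.3 CPM (52.1–56.6) and 46.1 CPM (43.7–48.5), a log2 ratio of -0.24 (-0.34 to -0.14). Prdm14, a PR-domain repressor of the methylation machinery, was the scarcest, with 342 and 219 UMIs. At 8.38 CPM (7.51–9.32) and 7.19 CPM (6.27–8.21), it was the only member whose intervals overlapped. The interval of its log2 ratio of -0.22 ran from -0.47 to 0.03, so a difference in CPM was not detectable at this depth.

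In all, 3 of 8 members were lower by the size rule, against 4.2% of all genes tested, and none was higher, against 18.8% of all genes. All 8 ratios were below 0, against 39.7% of genes, and 7 had separate intervals. The median ratio over the members was -0.34, beside 0.09 over all genes. TMM scaling moved every ratio by -0.21 and median-of-ratios scaling by -0.25, and all 8 ratios stayed below 0. The Prdm14 ratio became -0.43 and -0.47, and the overlap of its intervals was described for CPM only. With TMM scaling Esrrb joined the lower members (-0.63), and 12.2% of all genes were lower and 12.1% higher. Median-of-ratios scaling added Klf5 (-0.51), with 14.9% of genes lower and 11.0% higher. The order of levels was the same in both libraries, Klf2, Klf4, Klf5, Tfcp2l1, Tbx3, Nr5a2, Esrrb and Prdm14, and no neighbours in that order had overlapping intervals in either library. A UMI marks 1 transcript end, so CPM was not divided by length.

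Markers of other cell types, stress and RNA quality moved alongside these levels, and their part in the members' differences was not tested. In these lists a gene was measured when it had at least 200 UMIs over both libraries, and 18.8% of all such genes were higher and 4.2% lower. A gene near silent in DMSO passed this minimum only through its Idoxuridine UMIs, such as Amn with 19 and 247. Such a gene could only be called higher, so the counts of higher markers are descriptions. Primitive endoderm markers had 5 of 7 measured genes higher, out of 15 listed. Their summed level was 380 CPM with DMSO and 416 CPM with Idoxuridine, and 4 to 14 and 4 to 16 UMIs per cell (10th to 90th percentile). Trophectoderm markers had 2 of 5 higher (174 CPM and 242 CPM), mesendoderm markers 2 of 4 (18.6 CPM and 47.7 CPM), and neuroectoderm markers 2 of 3 with 1 lower (139.6 CPM and 211 CPM). Fibroblast markers summed to 1.71 CPM and 19.8 CPM, with 4 of 10 at 0 in DMSO and 1, Postn, at 0 in both. Of 21 measured p53 targets 13 were higher and none lower (1814 CPM and 2558 CPM), and of 12 immediate early genes 8 were higher and 1 lower (551 CPM and 689 CPM). Of 6 nuclear-retained RNAs 3 were higher and 1 lower, with 37 to 126 UMIs per cell in DMSO and 57 to 216 in Idoxuridine. Among cells in the middle range of nuclear-retained RNA share, the members' median ratio was -0.43, and 4 of 8 were lower, against 4.71% of all genes.

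**Figure D1:**
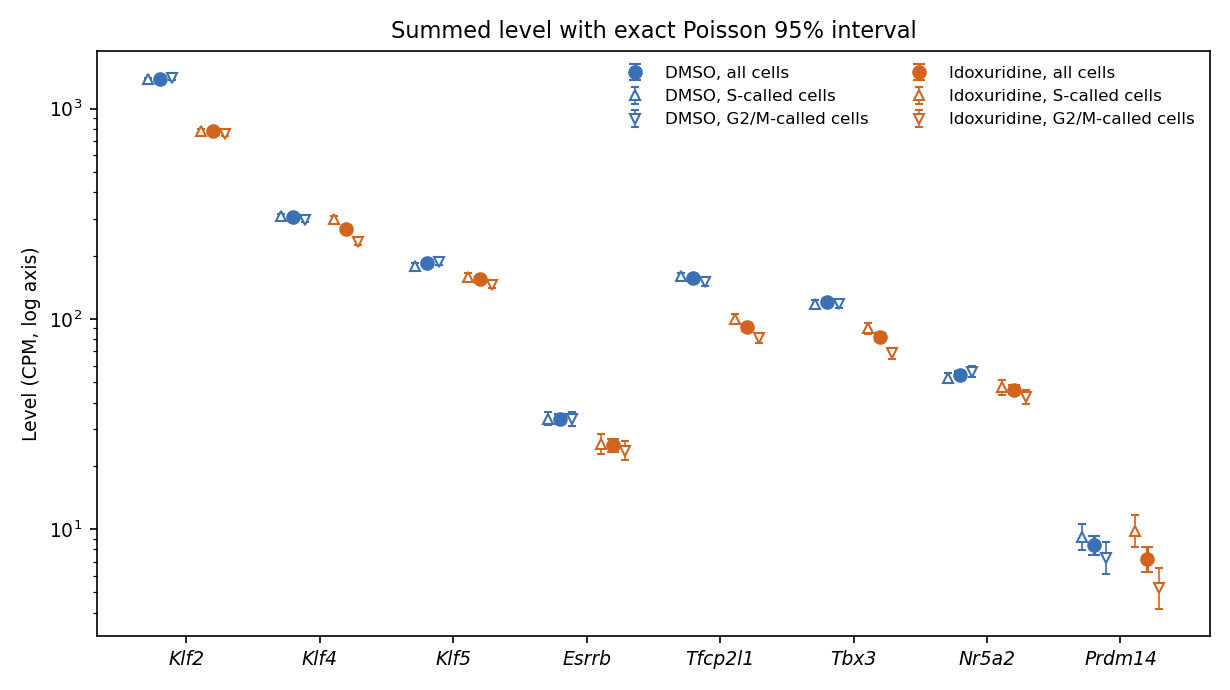
Level of each member in CPM (log axis) in DMSO (blue) and Idoxuridine cells (orange), for all cells (filled circles) and for cells called S (triangles up) or G2/M (triangles down), with exact Poisson 95% intervals. The filled Idoxuridine circle is below the DMSO circle for all 8 members, and the S-called Klf4 and Prdm14 points lie near or above their DMSO points.

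Cells called S and G2/M differed in how far the members stood apart between libraries, as the plot of levels by phase shows. At matched depth 59.3% of DMSO cells and 50.2% of Idoxuridine cells were called S, 40.2% and 49.1% G2/M, and 4 and 5 cells G1. Klf2 was alike in both calls, at 1382 CPM against 783 CPM in S cells and 1391 CPM against 756 CPM in G2/M cells. Klf4 stood at 309 CPM in DMSO and 299 CPM in Idoxuridine S cells, a log2 ratio of -0.05 with overlapping intervals (302 to 316 and 289.7 to 309). In G2/M cells Klf4 stood at 296 CPM and 233 CPM, a ratio of -0.34. Tbx3 had a ratio of -0.39 in S cells (118 CPM and 90.1 CPM) and -0.78 in G2/M cells (117 CPM and 68.5 CPM). Tfcp2l1 had ratios of -0.68 and -0.89, Nr5a2 of -0.15 and -0.41, Klf5 of -0.17 and -0.35, and Esrrb of -0.40 and -0.50. Prdm14 stood at 9.20 CPM and 9.81 CPM in S cells, with overlapping intervals (7.98 to 10.6 and 8.18 to 11.7), and at 7.30 CPM and 5.24 CPM in G2/M cells. For each member the ratio was lower in G2/M than in S cells, and this difference between phases was not tested.

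The per-cell distribution shows whether a lower level came with a shift of all cells or with a tail of low cells. Cells were thinned to 23500 UMIs, which kept 764 DMSO and 648 Idoxuridine cells and left out 47 and 94 shallower cells. Klf2 ranged from 3 to 83 UMIs per DMSO cell, with a median of 31, a 10th percentile of 19 and a 90th percentile of 46. In Idoxuridine cells it ranged from 0 to 58, with a median of 16, a 10th percentile of 5 and a 90th percentile of 32. The bulk of the Klf2 distribution thus lay lower in Idoxuridine cells, although the 2 distributions overlapped. Of Idoxuridine cells, 57.3% (53.3 to 61.1) had fewer than 19 Klf2 UMIs, against 8.77% of DMSO cells, and 2.31% had more than 46, against 9.82%.

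Klf4 differed at the low end of the distribution, and its high end was not distinguishable between libraries. Its median was 7 UMIs in DMSO and 5 in Idoxuridine cells, its 10th percentile 3 and 1, and its 90th percentile 14 in both. Fewer than 3 Klf4 UMIs were found in 9.82% (7.80 to 12.1) of DMSO and 23.5% (20.2 to 26.9) of Idoxuridine cells, and more than 14 in 7.72% and 8.02%. Klf5 had the same pattern, with medians of 4 and 3, 90th percentiles of 8 in both, fewer than 2 UMIs in 9.55% and 25.3% of cells and more than 8 in 6.28% (4.67 to 8.24) and 8.18% (6.19 to 10.6). Nr5a2, at a median of 1 in both, had more than 3 UMIs in 5.50% and 6.94% of cells, again with overlapping intervals (3.99 to 7.36 and 5.11 to 9.18). For Klf4, Klf5 and Nr5a2 the upper tail was therefore not distinguishable between libraries while the share of low cells was higher with Idoxuridine.

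Tfcp2l1 had more cells at the low end and fewer at the high end, and the upper percentiles of Tbx3 were lower too. Tfcp2l1 had a median of 4 and a 90th percentile of 7 UMIs in DMSO cells and 2 and 4 in Idoxuridine cells, and more than 7 UMIs in 6.28% and 0.463% of cells. Tbx3 had a median of 3, a 90th percentile of 6 and a 95th percentile of 7 in DMSO cells, and 1, 4 and 5 in Idoxuridine cells. More than 6 Tbx3 UMIs were found in 5.10% (3.65 to 6.91) and 3.09% (1.90 to 4.73) of cells, with overlapping intervals. Esrrb reached at most 4 UMIs in either library, with a median of 1 in DMSO and 0 in Idoxuridine cells.

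**Figure D2:**
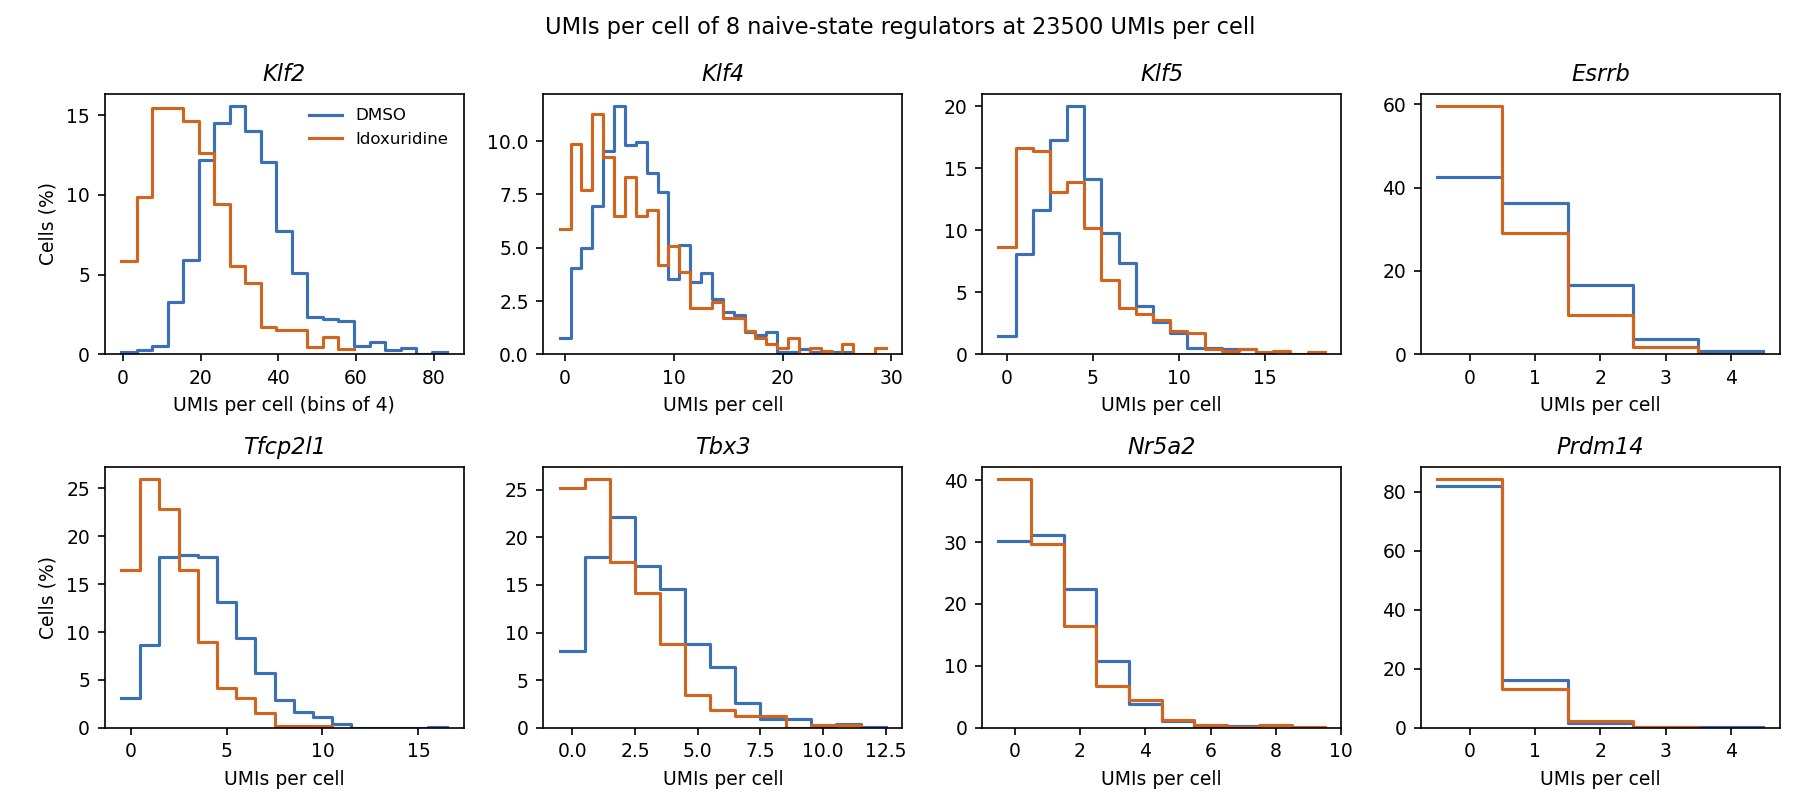
Share of cells (%) by number of UMIs of each member per cell, thinned to 23500 UMIs per cell, in 764 DMSO cells (blue) and 648 Idoxuridine cells (orange); Klf2 is in bins of 4 UMIs. The Klf2 curve lies to the left as a whole in Idoxuridine cells, whereas Klf4 and Klf5 have more cells near 0 and similar upper tails.

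The share of cells with a UMI followed the levels. At matched depth Tfcp2l1 had a UMI in 96.9% of DMSO and 83.5% of Idoxuridine cells, Tbx3 in 91.9% and 74.8%, Esrrb in 57.5% and 40.4%, and Nr5a2 in 69.9% and 59.9%. Klf2 had one in 100% and 99.2% of cells, Klf4 in 99.2% and 94.1%, Klf5 in 98.6% and 91.4%, and Prdm14 in 18.1% and 15.9%. Without thinning the shares were 99.3% and 91.8% for Tfcp2l1, 98.3% and 88.3% for Tbx3, 77.2% and 60.1% for Esrrb, 88.9% and 75.3% for Nr5a2, 99.9% and 99.1% for Klf2, 99.6% and 95.8% for Klf4, 99.5% and 94.5% for Klf5, and 34.3% and 22.2% for Prdm14. The labels name no other cell type in these libraries, so the share that free RNA gives in cells lacking these genes was not measured. For Prdm14 the exact binomial intervals overlapped (15.4 to 21.0 and 13.2 to 18.9).

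Cells without a UMI were compared with the share a Poisson distribution of the same mean gives. In Idoxuridine cells 5.86% had no Klf4 UMI against 0.157% under Poisson, 8.64% no Klf5 UMI against 2.44%, and 25.2% no Tbx3 UMI against 14.7%. Nr5a2 was at 0 in 40.1% against 31.3%, and Tfcp2l1 in 16.5% against 12.1%. The DMSO values were 0.785% against 0.0563% for Klf4, 3.14% against 2.06% for Tfcp2l1, 1.44% against 1.22% for Klf5, 8.12% against 5.25% for Tbx3 and 30.1% against 26.5% for Nr5a2. Esrrb zeros matched the Poisson share within counting error in both libraries, at 42.5% (39.0 to 46.1) against 43.1% in DMSO and 59.6% (55.7 to 63.4) against 58.4% in Idoxuridine.

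Idoxuridine cells tended to have UMIs of fewer members. All 8 members had a UMI in 7.46% of DMSO and 3.24% of Idoxuridine cells, 7 in 36.6% and 17.7%, 6 in 39.3% and 34.6%, 5 in 13.9% and 28.4%, and 4 in 2.49% and 11.9%. No DMSO cell had fewer than 3 and no Idoxuridine cell fewer than 2. No cell of either library lacked UMIs of Klf2, Klf4 and Klf5 together. With a floor of 3 counts this allows a share of up to 0.393% of DMSO and 0.463% of Idoxuridine cells, and the exact binomial upper limits are 0.482% and 0.568%. In DMSO every cell had a Klf2 UMI, which fixed this outcome. In Idoxuridine 5 cells had none, and the product of the 3 single shares is 0.00391%. The absence of such cells therefore does not show that cells keep 1 of the 3 genes. Klf4 and Klf5 were both at 0 in 6 Idoxuridine cells (0.926%, interval 0.341 to 2.00), where the product of the single shares is 0.507%. Tfcp2l1 and Tbx3 were both at 0 in 4 DMSO cells (0.524%, 0.143 to 1.33) and 37 Idoxuridine cells (5.71%, 4.05 to 7.79), with products of 0.255% and 4.15% that lie within those intervals.

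Summed over the 8 members, DMSO cells had a median of 52 UMIs (10th to 90th percentile 38 to 70, range 14 to 106) and Idoxuridine cells a median of 32 (17 to 53, range 3 to 93). Of Idoxuridine cells, 63.0% (59.1 to 66.7) lay below 38, against 9.29% (7.33 to 11.6) of DMSO cells. Conversely, 2.16% of Idoxuridine cells and 9.69% of DMSO cells lay above 70. The 2 distributions overlapped, and Klf2 dominates this sum.

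The comparison of spread asks whether cells of the treated library differed more from one another than counting alone gives. The Fano factor divides the variance of a gene's UMIs among cells by their mean, and equals 1 when nothing but counting varies. It could be compared for the 7 members whose mean was 0.25 UMI per cell or more after thinning in each library, and Prdm14 fell short with means of 0.212 and 0.185. Klf2 and Klf4 had the highest Fano factors in both libraries, and the 3 Krüppel-like factors had the highest ratios between libraries.

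Klf2 had a mean of 32.0 UMIs and a Fano factor of 3.73 in DMSO cells, and 18.0 and 6.48 in Idoxuridine cells, a log2 ratio of 0.80. Of the 7316 genes compared, 99.1% had a lower ratio. Its standard deviation was 10.9 UMIs in DMSO and 10.8 in Idoxuridine cells, so the spread in UMIs was alike at a lower mean. Klf4 had Fano factors of 2.64 and 4.05 at means of 7.53 and 6.52, a log2 ratio of 0.62. Klf5 had 1.40 and 2.23 at means of 4.38 and 3.65, a log2 ratio of 0.67. Among genes with means within 1.5 times that of Klf4, 96.0% in DMSO and 96.7% in Idoxuridine had a lower Fano factor, and for Klf5 these shares were 83.2% and 94.1%. Klf4 was thus wide for its level in both libraries, and Klf5 stood lower among its peers in DMSO.

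Nr5a2 had Fano factors of 1.18 and 1.54 and Tbx3 of 1.44 and 1.89, both log2 ratios of 0.39. Tfcp2l1 had 1.30 and 1.46 (0.17), and Esrrb 1.02 and 1.08 (0.08), near the counting floor. Tfcp2l1 therefore had a lower level by about as much as Klf2 but a Fano ratio closer to that of other genes, 79.1% of which had a lower one. The ratio differed between phase calls for some members, and this was not tested. A difference was also seen over all genes, of which 17.4% had a ratio of at least 0.25 in S cells and 9.26% in G2/M cells. In G2/M cells alone the ratio was 0.01 for Tbx3 and 0.01 for Tfcp2l1, against 0.56 and 0.25 in S cells. For Klf2 (0.48 and 0.98), Klf4 (0.38 and 0.74), Klf5 (0.45 and 0.78) and Nr5a2 (0.35 and 0.42) it stayed above 0.25 in both. Tbx3 was also below 0.25 at 15000 UMIs per cell (0.14) and among cells in the middle range of nuclear-retained RNA share (0.22).

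In all, 5 of 7 members were wider, by a Fano ratio of at least 0.25 log2, against 10.5% of all genes, and none was narrower, against 0.383%. All 7 Fano ratios were above 0, against 79.1% of genes, and their median was 0.39 beside 0.08 over all genes. A Fano factor can also be higher because the mean is lower. Of the 5 wider members, Klf4, Klf5 and Nr5a2 had a higher standard deviation in Idoxuridine cells. That of Klf2 was alike, and that of Tbx3 was 2.05 UMIs in DMSO and 1.92 in Idoxuridine cells. The counting-corrected squared coefficient of variation, which removes the counting part and the mean, was 0.0855 and 0.304 for Klf2, 0.218 and 0.467 for Klf4, 0.0922 and 0.337 for Klf5, 0.152 and 0.453 for Tbx3 and 0.130 and 0.478 for Nr5a2 in DMSO and Idoxuridine cells. It was 0.0797 and 0.215 for Tfcp2l1 and 0.0246 and 0.136 for Esrrb, so this measure was higher by at least 0.25 log2 with Idoxuridine for each of the 7, as it was for 68.7% of genes. On raw UMIs, where cells also differ in depth, the Klf2 Fano ratio was -0.67.

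**Figure D3:**
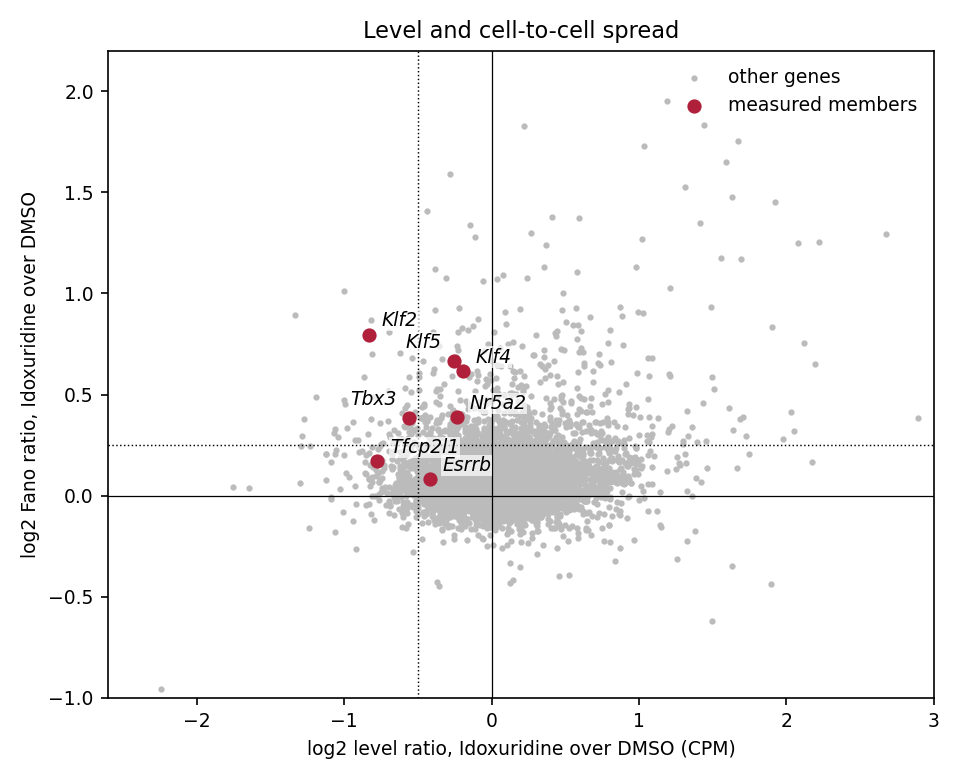
Log2 level ratio (x axis) against log2 Fano ratio (y axis), Idoxuridine over DMSO, for 7316 genes (grey, 8 of them outside the axes) and the 7 measured members (red); dotted lines mark -0.5 and 0.25. All 7 members lie left of 0 and above 0, and Klf2, Klf4 and Klf5 have the highest Fano ratios among them.

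Co-variation of the members over cells was weak in both libraries. Over the 21 pairs of the 7 measured members, the median Pearson correlation of thinned UMIs was 0.03 (-0.03 to 0.20) over 764 DMSO cells and 0.08 (0.03 to 0.21) over 648 Idoxuridine cells. Cells of a library share its preparation and were set to 1 depth, and correlations of sparse counts are pulled towards 0. They are given as descriptions. A correlation of at least 0.1 was reached by 3 pairs in DMSO, against 0.964% of all pairs of a measured member with another gene, and by 10 pairs in Idoxuridine, against 1.99%. Those other genes were not matched to the members in abundance or spread. The share of genes at this cut in DMSO ran from 0% for Esrrb to 3.16% for Klf4. In Idoxuridine 19 of 21 pairs were higher than in DMSO, but among G2/M cells alone 11 of 21 were, and after correction for counting noise 13 of 21. The corrected medians were 0.14 and 0.27.

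Klf4 and Tbx3 had the highest uncorrected correlation among the members in both libraries, 0.20 in DMSO and 0.21 in Idoxuridine. After correction, at 0.45 and 0.35, other pairs stood above it, such as Esrrb with Tbx3 at 0.71 and 0.39. The corrected DMSO values of Esrrb are unreliable, since its Fano factor of 1.02 leaves little variance beyond counting. Esrrb with Prdm14 came to 1.20 there, which no true correlation can reach. Klf4 with Klf5 was at 0.10 and 0.08, and Klf4 with Nr5a2 at 0.11 in both. After correction Klf4 with Klf5 was at 0.25 in DMSO and 0.12 in Idoxuridine, and Klf4 with Nr5a2 at 0.36 and 0.22. The Klf2 pairs differed. Klf2 with Tbx3 was at 0.01 in DMSO and 0.20 in Idoxuridine, Klf2 with Nr5a2 at 0.02 and 0.13, Klf2 with Tfcp2l1 at 0.03 and 0.12, and Klf2 with Klf4 at -0.02 and 0.07. Over the other 6 measured members the Klf2 correlation had a median of 0.01 (-0.03 to 0.03) in DMSO and 0.09 (0.06 to 0.20) in Idoxuridine. Within S cells the Idoxuridine median was 0.13 (0.07 to 0.18), and within G2/M cells 0.05 (-0.01 to 0.15).

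**Figure D4:**
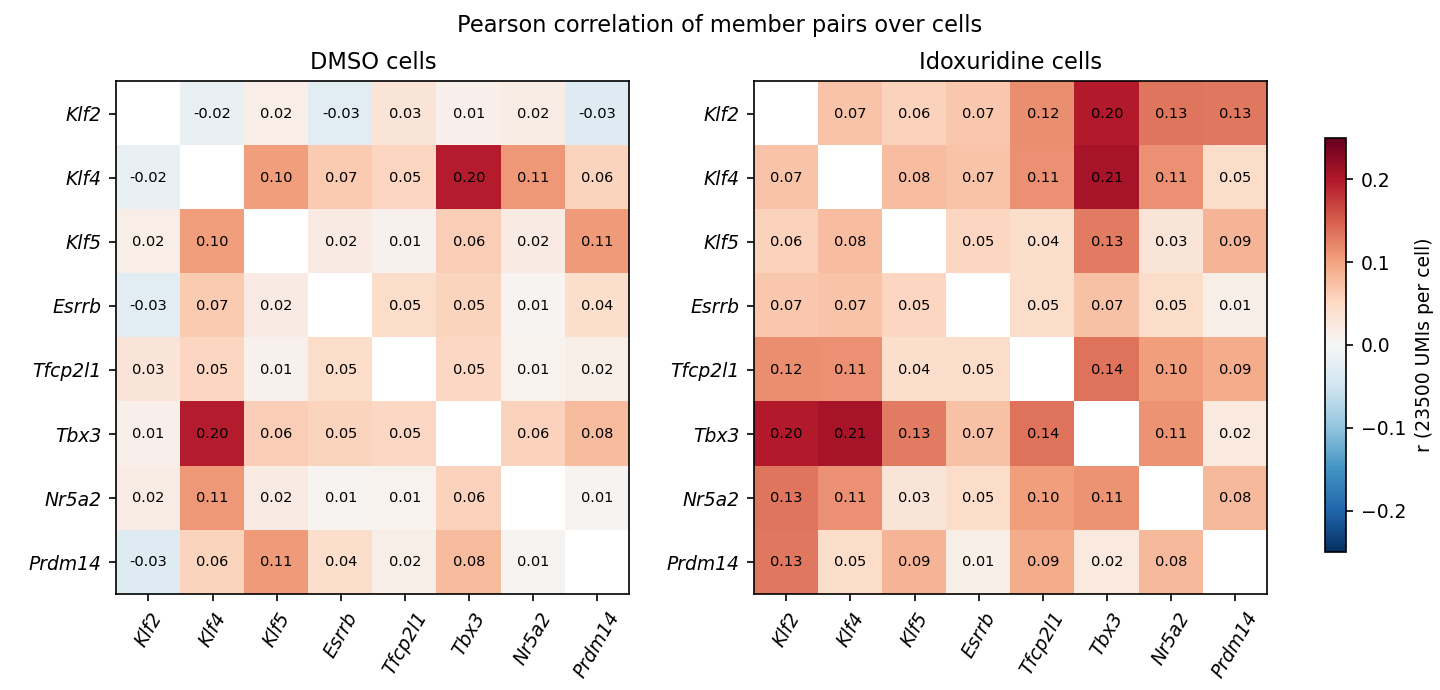
Pearson correlation of UMIs per cell (23500 UMIs per cell) for each pair of the 8 members, in DMSO cells (left) and Idoxuridine cells (right), on a colour scale from blue (negative) to red (positive). Klf4 with Tbx3 is dark in both panels, at 0.20 and 0.21, and the Klf2 row is near 0 in DMSO and between 0.06 and 0.20 in Idoxuridine.

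Against the summed UMIs of 18 other naive genes, Tbx3 had correlations of 0.21 in DMSO and 0.35 in Idoxuridine cells, Klf4 0.20 in both and Klf2 0.01 and 0.29. Tfcp2l1 was at 0.05 and 0.21, Nr5a2 at 0.07 and 0.23, Prdm14 at 0.08 and 0.22, Klf5 at 0.04 and 0.14, and Esrrb at 0.11 and 0.10. These values are lower for sparse genes. After correction for counting noise Klf2 was at 0.34 in Idoxuridine cells, below 5 of the other members, among them Prdm14 (0.61) and Tbx3 (0.55). With Nanog, a core pluripotency factor, Klf2 was at -0.02 and 0.29, and with Zfp42, a zinc finger marker of the naive state, at 0.13 and 0.37. The sum of nuclear-retained RNAs correlated with Tbx3 at 0.27 and 0.23 and with Klf4 at 0.22 and 0.04, and its part in the pair of Klf4 and Tbx3 was not tested. With Klf2 it was at -0.04 and 0.11.

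**Figure D5:**
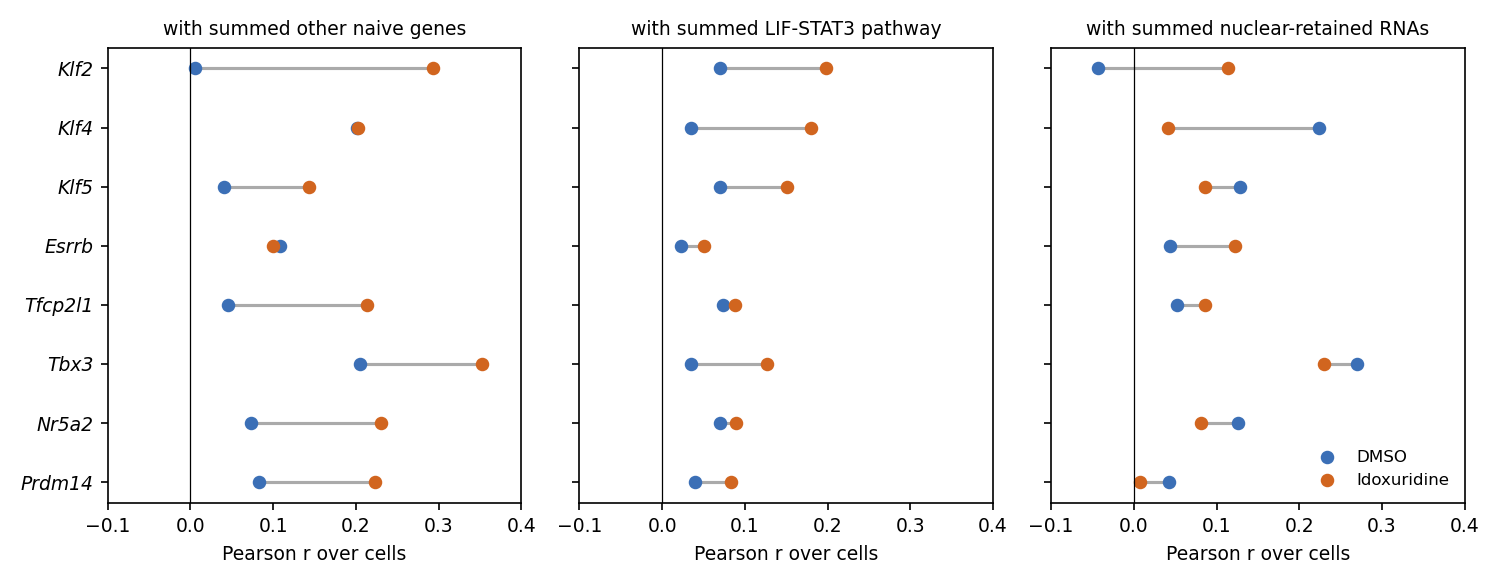
Pearson correlation over cells of each member with the summed UMIs of other naive genes, of the LIF-STAT3 pathway and of nuclear-retained RNAs, in DMSO (blue) and Idoxuridine (orange) cells at 23500 UMIs per cell. Klf2 goes from 0.01 to 0.29 against the other naive genes, while Klf4 stays at 0.20.

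The genes most like each member were those with the highest correlation with it, over 764 DMSO or 648 Idoxuridine cells. For Klf2 they were Stmn1 (0.22), Snrpn (0.20) and Eif5a (0.20) in DMSO, with values of 0.08, -0.01 and -0.08 in Idoxuridine, where Zfp42 (0.37), Nanog (0.29) and Hsp90aa1 (0.24) led. The 3 leading genes of Klf2 thus differed between the libraries. For Klf4 they were Cd81 (0.26), Sox2 (0.25) and the glucose transporter Slc2a3 (0.25) in DMSO and Cd9 (0.26), Zfp42 (0.22) and the methylcytosine oxidase Tet1 (0.21) in Idoxuridine. For Tbx3 they were the nuclear RNA Malat1 (0.28), Slc2a3 (0.26) and Klf9 (0.23) in DMSO and Zfp57 (0.27), Zfp42 (0.27) and Ogt (0.27) in Idoxuridine. Zfp42 was among the 3 leading genes of 5 measured members in Idoxuridine cells, Klf2, Klf4, Esrrb (0.12), Tbx3 and Nr5a2 (0.17), and of none in DMSO cells. This is a contrast of ranks, and the correlation of Klf4 with Zfp42 was alike in DMSO (0.21). In DMSO cells Zfp42 was at 0.13 with Klf2, 0.13 with Tbx3, 0.08 with Nr5a2 and 0.06 with Esrrb. The values for Klf5 (at most 0.12 in DMSO and 0.16 in Idoxuridine) and Esrrb (at most 0.09 and 0.12) were lower. Tfcp2l1 had Eif2s2 (0.17) first in DMSO and Cd9 (0.20) in Idoxuridine, and Nr5a2 had Hnrnpf (0.17) and Tdgf1 (0.20).

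Genes of the signals that act on the members were described by RNA level, which does not measure the activity of a pathway. By the same rule 18.8% of all genes were higher and 4.2% lower. Of 13 measured genes of the LIF-STAT3 pathway 1 was higher and none lower, with a median ratio of 0.05 that became -0.16 with TMM scaling. Stat5a stood at 3.72 CPM and 8.50 CPM. The sum of this list correlated with Klf2 at 0.07 in DMSO and 0.20 in Idoxuridine, with Klf4 at 0.03 and 0.18 and with Klf5 at 0.07 and 0.15. Of 16 genes of the Wnt-GSK3 pathway 7 were higher and none lower (median 0.44, with TMM scaling 0.23), led by the Wnt feedback gene Nkd1 (3.36 CPM and 9.46 CPM) and Lef1 (10.6 CPM and 17.6 CPM). Of 17 genes of the FGF-MEK-ERK pathway 7 were higher and 1 lower (median 0.28, with TMM scaling 0.07). The ERK phosphatase gene Dusp4 stood at 1.00 CPM and 6.37 CPM, and the ligand gene Fgf4 at 114 CPM and 62.6 CPM (-0.86). Of 15 co-factors of the members, 1 was higher and none lower, with a median of 0.14 that became -0.07 with TMM scaling.

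Other naive genes were lower in part, with 5 of 18 lower (4.2% of all genes), 3 higher (18.8%) and a median of -0.40. Tcl1 stood at 168 CPM and 49.9 CPM, and Dppa3, a maternal and naive-state factor, went the other way, at 4.75 CPM and 98.0 CPM (4.37). The formative or primed list had 5 of 11 measured genes higher and 2 lower (median 0.18, with TMM scaling -0.04), among them the de novo methyltransferase gene Dnmt3a at 11.6 CPM and 31.6 CPM, the tight junction gene Cldn6 at 6.74 CPM and 54.9 CPM, and Foxd3 at 15.6 CPM and 10.1 CPM. Of the paralogs, 10 further Krüppel-like factor genes had 1 lower and none higher, a median of -0.15 that stayed below 0 with both other scalings. Klf15, the lower one, stood at 114 CPM and 69.9 CPM, Klf9 at 244 CPM and 212 CPM and Klf3 at 118 CPM and 90.2 CPM. The highest ratios of this list were those of Klf7, at 14.5 CPM and 19.2 CPM, and Klf10, at 40.3 CPM and 49.1 CPM. Esrra, the paralog of Esrrb, was higher, at 14.1 CPM and 24.1 CPM (0.77), against -0.42 for Esrrb. Tfcp2, a paralog of Tfcp2l1, was higher at 3.53 CPM and 7.45 CPM (1.08). More abundant genes of that family were neither higher nor lower by the rule, with Ubp1 at 42.2 CPM and 37.7 CPM (-0.16) and Grhl3 at 41.3 CPM and 44.8 CPM (0.12). Among other T-box genes the mesoderm factor T stood at 1.86 CPM and 14.9 CPM and Mga at 125 CPM and 110.4 CPM, and Prdm1 stood at 4.83 CPM and 2.59 CPM (-0.90).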

How the data were processed

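Single-cell 3′ RNA libraries (10x Genomics V2) of 1 DMSO and 1 Idoxuridine sample were used, grouped by their treatment labels. The authors deposited raw UMI counts, as whole numbers with no normalization, and every deposited barcode was taken as a cell. Per the submitters' processing notes the tools were Cell Ranger 2 and Seurat and the build was mm10, while the way cells were selected is not given in the sources used here. No doublets were removed here. Levels were summed UMIs per 1000000 with exact Poisson 95% intervals, and ratios had exact conditional binomial intervals. Shares had exact binomial (Clopper-Pearson) intervals. With 1 library per group there was no test between treatments. Spread and Pearson correlations came from the exact expectation of thinning each cell to 23500 UMIs (the pooled 10th percentile rounded down to a multiple of 500). The counting-corrected values subtract the variance that counting gives. Shares, quantiles and phases (scanpy 1.11.5, S and G2/M lists) came from 1 seeded random thinning. TMM factors came from edgeR 4.0.16. Other software was Python 3.11.15, numpy 2.4.6, scipy 1.17.1 and R 4.3.3. Level ratios, Fano factors and the counting-corrected values were tested on simulated data, and the other computations were not. Gene coordinates are from GENCODE M21, and promoters from RefSeq. The members, the 22 gene lists (1 of 350 symbols not found), the measures and the alternatives were chosen with earlier results of these data known. Named genes are the members, genes with extreme ratios in each list, abundant paralogs, and the 3 genes most correlated with a member in each library.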

Additional observations from a re-analysis of the deposited data

How the results depend on the processing

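The members' level ratios kept their direction in 79 of 80 values under other scalings, subsets of cells and no minimum of UMIs. The exception was Prdm14 at 0.092 in S cells. The Fano ratios kept theirs in 59 of 62, and the exceptions were on raw UMIs, among them Klf2 at -0.67. Part of both counts was fixed in advance. Level ratios without a minimum of UMIs, and Fano ratios at other minimum means, repeat the main values by construction. TMM and median-of-ratios scaling shift all level ratios by 1 constant each. The count of lower members, 3, was 5 with median-of-ratios scaling (14.9% of all genes), 5 at a threshold of 0.25 log2 (13.4%) and 0 at a threshold of 1 (0.491%). The median level ratio, -0.34, was -0.55 with TMM scaling, -0.59 with median-of-ratios scaling, -0.43 in the middle range of nuclear-retained RNA share, -0.28 in S cells and -0.49 in G2/M cells. On raw UMIs of all cells 3 of 7 members were wider (9.54% of all genes) and 1 narrower (14.2%). There the median pair correlations were 0.35 in DMSO and 0.22 in Idoxuridine, where differences in depth between cells enter by construction, and 0 of 21 pairs were higher in Idoxuridine. The DMSO median was 0.013 in G2/M cells, 0.14 after counting correction and 0.053 on log values, and the Idoxuridine median was 0.27 after counting correction. The share of Idoxuridine cells below the DMSO 10th percentile of the summed members, 63.0%, was 56.2% at 15000 UMIs per cell, 69.9% at 30000 and 68.0% in the middle range of nuclear-retained RNA share, alternatives chosen after seeing the data. The cause of these shifts was not tested. G1 cells, 4 and 5 in number, were too few for a value, and leaving out a library leaves no comparison. No paired analysis was possible because each group has 1 library. Depth limits Prdm14 most, since its CPM intervals overlap and it was too sparse for the spread.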
